A study of Sus scrofa with 16 samples.

Results

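The stanniocalcins, STC1 and STC2, were followed in the pituitary transcriptome of Puławska gilts. Both genes were taken by their identifiers in the deposited count table (STC1, ENSSSCG00000009642 and STC2, ENSSSCG00000016983), and they made up 2 of the 25880 genes listed. The study compared 8 gilts of low feed conversion, called LFC and numbered 1 to 8 here, with 8 gilts of high feed conversion, called HFC and numbered 9 to 16, where feed conversion is the feed eaten per unit of weight gained. All 16 animals were females of the same native breed, the labels give an age of 3 months for each (the study's methods describe older animals at slaughter), and no treatment or modified allele was named for either group. By the methods, every library was made from the RNA of a homogenised whole gland, so a value can mix the anterior, intermediate and posterior lobes. The share of each lobe was not measured, and the levels of lobe markers given below differed widely between libraries. Fewer cells of a type and less RNA per cell cannot be told apart.

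Stanniocalcins are secreted glycoproteins that were discovered in the corpuscles of Stannius of bony fishes, where the hormone lowers the uptake of calcium when blood calcium is high. In mammals both proteins act mostly near the cells that release them. They bind and inhibit the metalloproteinases PAPP-A and PAPP-A2, which cut IGF-binding proteins and so set insulin-like growth factors free. STC1 is known as a target of hypoxia and of calcium signals, and STC2 as a target of the unfolded protein response and of the transcription factor ATF4. The genes set beside them here are POMC, the precursor of ACTH and of melanocyte-stimulating hormone, PCSK2, the convertase that melanotrophs of the intermediate lobe use to process it further, and PAX7, the transcription factor that marks melanotrophs.

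In Sscrofa11.1, the deposited annotation placed STC1 on chromosome 14 from 7948655 to 7961629 and STC2 on chromosome 16 from 50989696 to 51005628, each with 1 transcript. No other annotated gene overlapped either of them, which matters because the library kit kept no strand. In the RefSeq annotation of the same assembly STC1 lay between NKX2-6 and ADAM28, and STC2 between BOD1 and NKX2-5. POMC was matched by position, and its locus overlapped that of another gene in the deposited annotation, so its counts carry that uncertainty. Total counts ran from 10.973 to 23.06 M per library. STC1 received 63 to 1545 reads per library and STC2 10 to 85, so counting error was a larger share of each STC2 value. For the smallest count, 10 reads of STC2 in HFC replicate 13, the exact 95% Poisson interval was 4.8 to 18.4, and for the largest STC2 count, 85 reads in LFC replicate 7, it was 67.9 to 105.1. These intervals cover counting error only.

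Before the values are given, 3 libraries are named, without which the results were also computed. HFC replicate 16 held 243007 CPM (counts scaled to library size with TMM factors) of POMC and 2595 CPM of PCSK2, against at most 77318 and 299 CPM in any other library. Its summed level of 8 anterior hormone cell markers was 12673 CPM by total count, against 57701 to 170998 in LFC and 27235 to 155821 in the other HFC libraries. LFC replicate 5 had the lowest TMM factor of the series, 0.751, and HFC replicate 14 the smallest total count, 10.973 M, with HFC replicate 13 next at 11.341 M. Results are therefore also given without these libraries where that changes them.

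STC1 varied strongly among the glands and was by far most abundant in HFC replicate 16. In LFC it was lowest in replicate 2 at 4.26 CPM, had a median of 7.96 CPM, and was highest in replicates 5 and 8 at 16.3 CPM. Within LFC, replicates 2, 3, 4 and 6 lay between 4.26 and 5.61 CPM, whereas replicates 1, 5, 7 and 8 lay between 10.3 and 16.3 CPM. In HFC it was lowest in replicate 9 at 5.06 CPM, had a median of 10.4 CPM, and reached 93 CPM in replicate 16. The next HFC libraries were replicate 11 at 25.6 CPM, replicate 15 at 16 CPM and replicate 14 at 11.7 CPM. Only replicates 11 and 16, 2 of 8 HFC libraries, were above the highest LFC library, and 5 of 8 were above the LFC mean on the log2 scale, so the HFC libraries other than these 2 lay within the range of LFC. Replicate 16 stood 10.1-fold above the median of the other 15 libraries, and its 1545 reads had an exact 95% interval of 1468.9 to 1624.0, so counting error was small beside that gap.

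STC2 was measured at a low level in every gland and varied much less. In LFC it ran from 1.56 CPM in replicate 6 to 3.74 CPM in replicate 7. In HFC it ran from 0.966 CPM in replicate 13 to 3.14 CPM in replicate 11. In HFC, 6 of 8 libraries were below the LFC mean on the log2 scale, but only replicates 13 and 16 were below the lowest LFC library. HFC replicate 16, the library richest in STC1, was the second lowest of all in STC2 with 1.51 CPM, while replicate 11 was high in both genes. The levels of STC1 and STC2 were not compared with each other, since no transcript lengths were at hand.

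**Figure D1:**
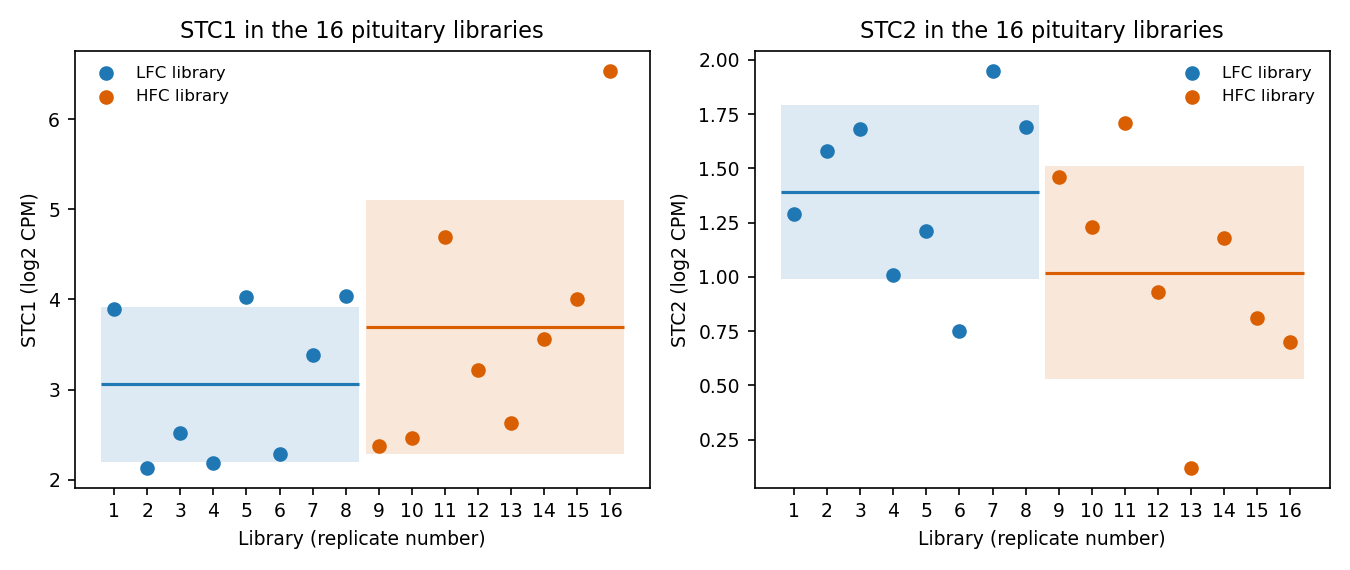
Log2 CPM of STC1 (left) and STC2 (right) in each library, with the replicate number on the x axis, LFC in blue and HFC in orange, and a line and band for the group mean ± SD (n = 8 each). HFC replicate 16 stands alone at the top for STC1 (93 CPM), and HFC replicate 13 is lowest for STC2 (0.966 CPM).

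The main comparison asked whether the pituitary expression of the stanniocalcins differed with feed conversion. STC1 averaged 9.57 ± 5.48 CPM in LFC (SD, n = 8) and 21.5 ± 29.7 CPM in HFC (SD, n = 8). The edgeR log2 fold change of HFC over LFC was 1.18 (SE 0.59), a fold of 2.26, and did not pass the threshold (edgeR quasi-likelihood test, Benjamini-Hochberg adjusted p = 0.891 over the 14319 genes tested). Without replicate 16 the HFC mean was 11.3 ± 7.46 CPM (SD, n = 7), and the log2 fold change was 0.25 (SE 0.42, adjusted p = 1 by the same edgeR test). With any other single library left out it stayed between 1.06 and 1.33. The mean log2 CPM differed by 0.63 between the groups (exact permutation test, two-sided p = 0.315), and by 0.22 without replicate 16 (exact p = 0.623). The size of the STC1 difference thus rested on that library.

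STC2 averaged 2.6 ± 0.727 CPM in LFC (SD, n = 8) and 2.01 ± 0.683 CPM in HFC (SD, n = 8), in the opposite direction to STC1. On the log2 scale STC2 was fitted at -0.37 (SE 0.24, edgeR adjusted p = 0.992), and the estimate lay between -0.50 and -0.27 with each library left out in turn. Leaving out replicate 16 gave -0.32, so the direction did not come from that gland. The mean log2 CPM was lower by 0.38 in HFC (exact permutation p = 0.112). Without HFC replicate 11 the difference in means was -0.48 (exact permutation p = 0.0449), and without LFC replicate 6 it was -0.47 (exact permutation p = 0.0491), neither adjusted for the number of libraries tried. The difference did not exceed the spread between libraries in the whole set.

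Over all genes 0% were called in the main comparison (0 of 14319 at an adjusted p of at most 0.05 and a fold of at least 1.3), and the smallest adjusted p was 0.612. DESeq2, as run here, called 6 genes, and neither stanniocalcin was among them (adjusted p = 0.702 for STC1 and 0.941 for STC2). The study's own DESeq2 comparison listed STC1 among its differential genes in this breed. It also measured STC1 by qPCR in the pigs it sequenced and reported a correlation with its RNA-seq values. Why the calls differ was not tested. At an unadjusted edgeR p under 0.05, 4.29% of genes were higher and 1.53% lower in HFC, 834 genes in all. Neither STC1 nor STC2 was among those genes, although STC1 was under that level with DESeq2 and in edgeR without LFC replicate 5 or 8 or HFC replicate 9, 10, 12 or 13, and also with LFC replicate 5 and HFC replicate 14 both left out.

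**Figure D2:**
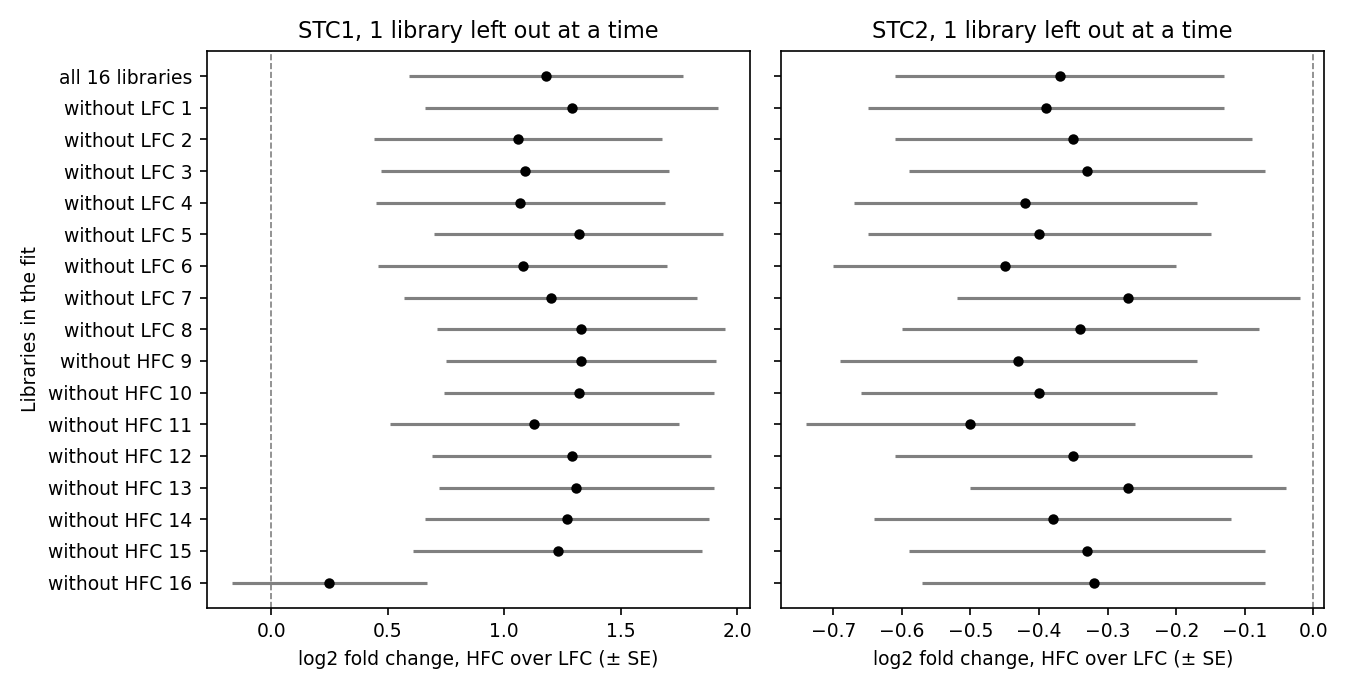
Log2 fold change of HFC over LFC from edgeR for STC1 (left) and STC2 (right), with all 16 libraries on top and 1 library left out in each further row. Points are estimates and bars are ± SE, and the dashed line marks no difference. STC1 drops from 1.18 to 0.25 without HFC replicate 16, whereas STC2 stays between -0.50 and -0.27.

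The spread itself separated the genes. The biological coefficient of variation was 77.3% for STC1 and 32.6% for STC2, beside a common value of 38.6% over all genes tested. The SD of log2 CPM of STC1 was 0.86 in LFC, larger than that of 89.2% of the genes tested, and 1.41 in HFC, larger than that of 97.2%. Without replicate 16 it was 0.87 in HFC, which still exceeded 90.1% of the genes. STC1 was therefore variable among glands of both groups and not only through its top library. For STC2 the SD was 0.40 in LFC and 0.49 in HFC, larger than that of 46.7% and 63.1% of genes.

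Because the fitted changes pointed in opposite directions, the balance of the pair was followed as the log2 ratio of STC1 to STC2 in the same library, a measure chosen after the data were seen. In LFC the ratio ran from 0.55 in replicate 2 to 2.83 in replicate 5, and in HFC from 0.91 in replicate 9 to 5.84 in replicate 16. The HFC libraries 11 to 15 lay between 2.29 and 3.20, a span that LFC replicates 1, 5 and 8 also reached. The mean ratio was 1.66 in LFC and 2.67 in HFC, a difference of 1.01. That difference was 0.55 without HFC replicate 16 and 1.26 without HFC replicate 9. It combines the STC1 and STC2 differences already given, so it is a description and no further evidence. Exact permutation p-values were computed for it but are not used, because the measure was chosen from these same values. Across all libraries the genes did not vary together (Pearson r = -0.05, adjusted permutation p = 0.858, Spearman rho = 0.06, n = 16).

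The next question was whether the stanniocalcins followed the melanotroph genes across libraries. PCSK2 ranged from 2.47 to 27.3 CPM in LFC and from 2.66 to 2595 CPM in HFC, and was fitted 5.34 higher in HFC on the log2 scale (SE 1.28, edgeR adjusted p = 0.612), which was 3.21 without replicate 16, 3.07 with DESeq2 and 2.98 with limma-voom. POMC averaged 26693 ± 22430 CPM in LFC (SD, n = 8) and 68327 ± 72614 CPM in HFC (SD, n = 8), with a log2 fold change of 1.36 that was 0.70 without replicate 16. In all, 19 relations were computed on log2 CPM: each stanniocalcin with POMC, PCSK2, PAX7 and the means of 6 gene lists, and STC1 with STC2. Their p-values came from 100000 permutations, or from all orders within a group, and were Benjamini-Hochberg adjusted over the 19. The partners were chosen with earlier results of these libraries known.

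Over the 16 libraries STC1 rose with PCSK2 (Pearson r = 0.67, permutation p = 0.00602, adjusted p = 0.0328) and with POMC (r = 0.69, permutation p = 0.00409, adjusted p = 0.0328). The ranks did not follow to the same degree, with a Spearman rho of 0.33 for PCSK2 (permutation p = 0.213, adjusted p = 0.486) and of 0.42 for POMC (permutation p = 0.108, adjusted p = 0.46). Without replicate 16 the r values were 0.38 for PCSK2 and 0.45 for POMC, with adjusted permutation p of 0.392 and 0.365. With the 2 libraries farthest from the median of the partner left out they were 0.15 and 0.36, so both relations rested on these libraries. With PAX7 the r was 0.63 (permutation p = 0.0132, adjusted p = 0.0435) with a rho of 0.24 (permutation p = 0.363, adjusted p = 0.53), and without the 2 farthest libraries the r was -0.01. After centring on the group means the r was 0.65 with PCSK2 and 0.66 with POMC, both with an adjusted permutation p of 0.0474, while with PAX7 it was 0.59 and no longer past the threshold (adjusted permutation p = 0.067).

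The order of the libraries was then compared within each group. Among the 8 HFC libraries STC1 and PCSK2 ran in nearly the same order (rho = 0.93, exact p = 0.00223, adjusted p = 0.0424 over the 19 relations). The HFC libraries 11, 14, 15 and 16 were the 4 highest in PCSK2 and the 4 highest in STC1. Without replicate 16 the rho was 0.89 (exact p = 0.0123, adjusted p = 0.234, n = 7), so the order itself did not depend on that library although the adjusted call did. Among the 8 LFC libraries the rho was -0.36 (exact p = 0.389, adjusted p = 0.74), and LFC replicates 1, 5 and 8 joined some of the highest STC1 levels of their group with PCSK2 at the low end. The rho of HFC minus that of LFC was 1.29 for PCSK2, 1.17 for PAX7 and 0.45 for POMC, and 1.25, 1.07 and 0.20 without replicate 16. These differences were taken after the rho values were seen and are given as a description. Exact permutation p-values were computed for them but are not used, because the comparison was chosen from these same values.

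STC2 showed no such relation. Its r was -0.28 with PCSK2 (permutation p = 0.298, adjusted p = 0.436) and -0.31 with POMC (permutation p = 0.248, adjusted p = 0.412), with rho of -0.27 and -0.33. Its rho with PCSK2 was 0.12 in LFC and -0.21 in HFC.

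When the log2 CPM of PCSK2 entered the edgeR fit as a covariate, also added after the data were seen, the group coefficient of STC1 turned from 1.18 to -0.66 (SE 0.57, unadjusted p = 0.269), and that of STC2 was -0.35 (SE 0.30). That fit used a common PCSK2 slope for both groups, although the rho of STC1 with PCSK2 was 0.93 in HFC and -0.36 in LFC. It was not run without HFC replicate 16, so the -0.66 is not read as an adjusted group effect. The mean log2 CPM of PCSK2 was higher by 3.07 in HFC (exact permutation p = 0.0244). It was higher by 2.28 without HFC replicate 16 (exact permutation p = 0.0466). With LFC replicate 5 and HFC replicate 14 left out it was higher by 2.64 (exact permutation p = 0.0787). The covariate thus had a higher mean in HFC itself, and how far that fit separates it from group was not tested.

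**Figure D3:**
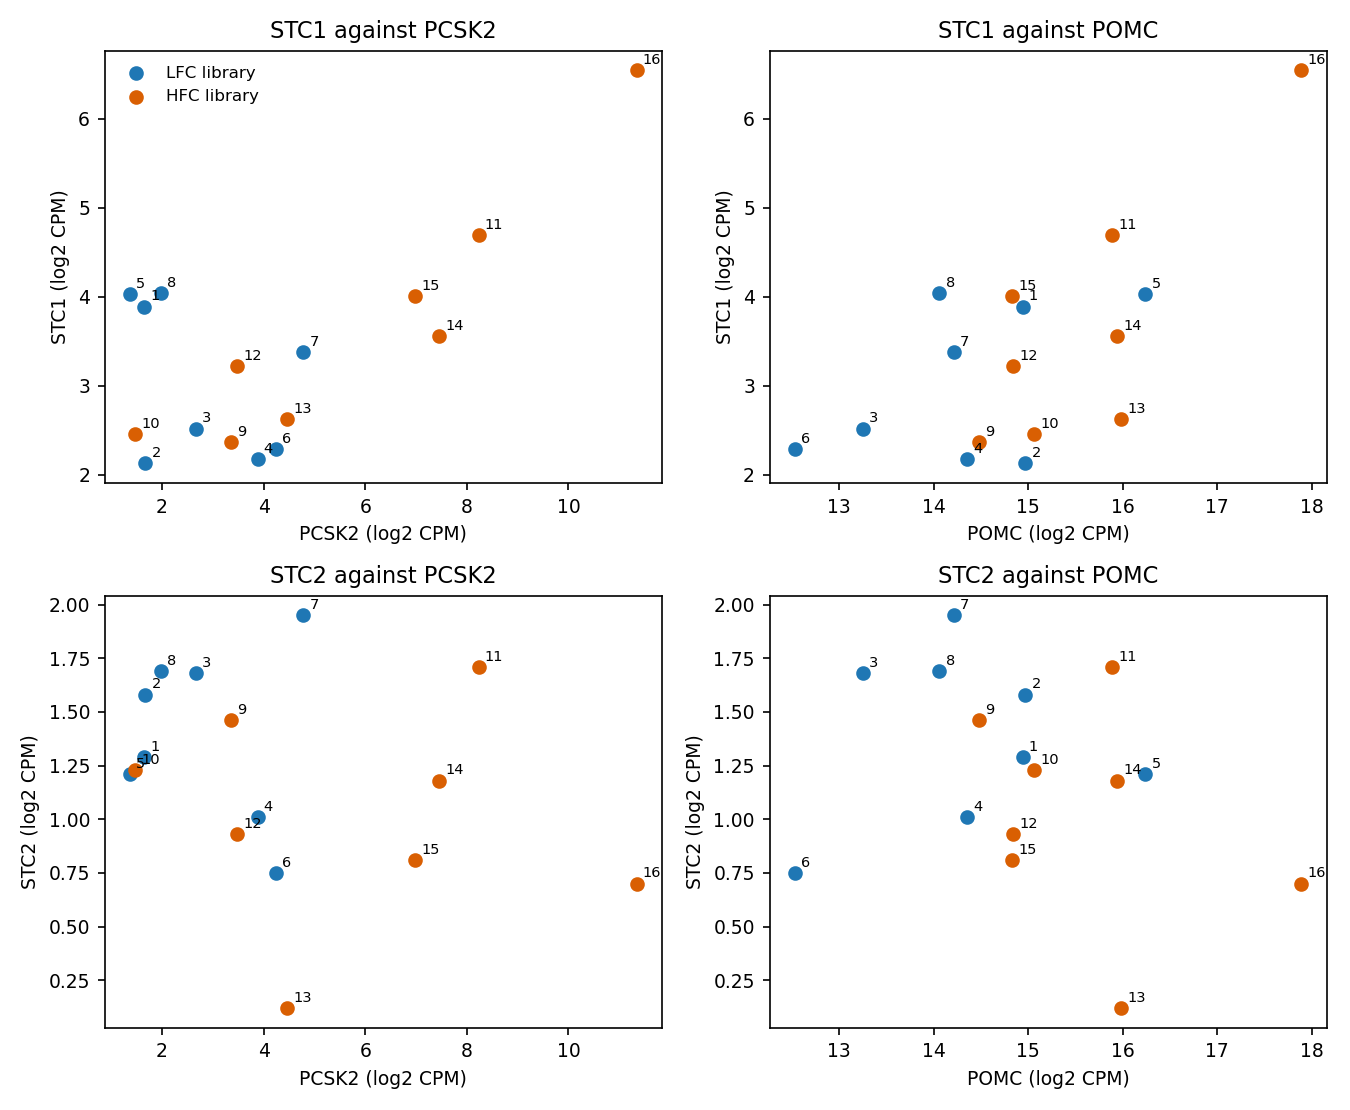
Log2 CPM of STC1 (top) and STC2 (bottom) against log2 CPM of PCSK2 (left) and POMC (right), 1 point per library, labelled with its replicate number, LFC in blue and HFC in orange (n = 8 each). In the upper left panel the HFC points climb together from replicate 10 to replicate 16 (rho = 0.93), while LFC replicates 1, 5 and 8 combine high STC1 with low PCSK2.

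Levels of other cell types and states were set beside both genes through list means. STC1 rose with the mean of the hypoxia response list (r = 0.69, permutation p = 0.00535, adjusted p = 0.0328), and here the ranks followed to a similar degree (rho = 0.71, permutation p = 0.00282, adjusted p = 0.0536). The rho was 0.71 in LFC (exact p = 0.0576, adjusted p = 0.547) and 0.79 in HFC (exact p = 0.0279, adjusted p = 0.177), so the direction was shared, and after centring on the group means it was 0.75 (permutation p = 0.00137, adjusted p = 0.026). Without the 2 farthest libraries the r was 0.69 (adjusted permutation p = 0.0785), without replicate 16 it was 0.53 (adjusted permutation p = 0.294), and without LFC replicate 5 and HFC replicate 14 it was 0.90 (adjusted permutation p = 0.0019). With libraries scaled by total count the r was 0.55 and the call was lost (adjusted permutation p = 0.0711). STC1 also rose with the pituicyte and glia mean (r = 0.63, permutation p = 0.00691, adjusted p = 0.0328, rho = 0.58, adjusted permutation p = 0.198), which was 0.42 without replicate 16, 0.27 without the 2 farthest libraries and 0.59 after centring (adjusted permutation p = 0.067), none of them past the threshold. Its r with the endothelial, pericyte and fibroblast means lay between 0.34 and 0.45, none past the threshold.

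STC2 had its highest r with the endothelial mean (r = 0.60, permutation p = 0.0137, adjusted p = 0.0435, rho = 0.54, adjusted permutation p = 0.198). Without replicate 16 the r was 0.62 but the adjusted call was lost (adjusted permutation p = 0.271), as it was after centring (r = 0.55, adjusted permutation p = 0.0821), with the 10 most abundant genes left out (r = 0.59, adjusted permutation p = 0.0566) and without the 2 libraries farthest from the median (r = 0.40, adjusted permutation p = 0.562). The call held without LFC replicate 5 and HFC replicate 14 (r = 0.67, adjusted permutation p = 0.0337). By total count the r was 0.74 (adjusted permutation p = 0.0186), but there both values share any scaling error of a library. An r by total count is therefore not read as separate support. With the mean of the ER stress and ATF4 list, to which known regulators of STC2 belong, the r was 0.39 (permutation p = 0.135, adjusted p = 0.295) on TMM-scaled values and 0.69 (permutation p = 0.00306, adjusted p = 0.0291) when libraries were scaled by total count. The cells that made either transcript were not identified in these whole glands.

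The genes whose pattern was most like that of STC1 were ranked by Spearman rho over the 16 libraries among 13207 named genes, as a description with no test, since the top of so long a ranking is high by selection. The highest was BDNF, a neurotrophin, with rho = 0.90, followed by TGFB1, a growth factor ligand, at 0.86, MPPE1, a phosphodiesterase of GPI-anchor processing, at 0.86, PROCR, the endothelial receptor of protein C, at 0.86, and KLF4, a zinc finger transcription factor, at 0.83. Without HFC replicate 16, 4 of these 5 were again among the 5 most alike, and the rho of BDNF was 0.87. After centring on group means BDNF kept a rho of 0.87 and TGFB1 had 0.89. BDNF ran from 0.683 to 3.42 CPM in LFC and from 0.723 to 13.6 CPM in HFC, with its highest value, like that of STC1, in replicate 16, where it stood 7.6-fold above the median of the other libraries. TGFB1 was second highest there with 30.6 CPM and KLF4 held rank 3 with 6.62 CPM. Without that library the rho of TGFB1 was 0.84 and that of KLF4 0.81, so their likeness to STC1 did not come from it alone. KLF4 was then at place 10. In the ranking over all 16 libraries POMC was at place 1124 and PCSK2 at place 1955.

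For STC2 the most alike were CXCL10, a chemokine, at 0.77, CCDC73 at 0.77, PRKG1, a cGMP-dependent kinase, at 0.76, ADGRF5, an adhesion receptor, at 0.75, and PODXL, a sialomucin of endothelium and epithelium, at 0.74. Without HFC replicate 16 the 5 most alike were PDGFD, ITPRIP, CAVIN2, HMCN1 and CYP7B1, with rho from 0.82 to 0.89, and 0 of the 5 were shared, so this list was much less stable than that of STC1. With 10 to 85 reads per library behind STC2, its order among libraries is also less sure.

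**Figure D4:**
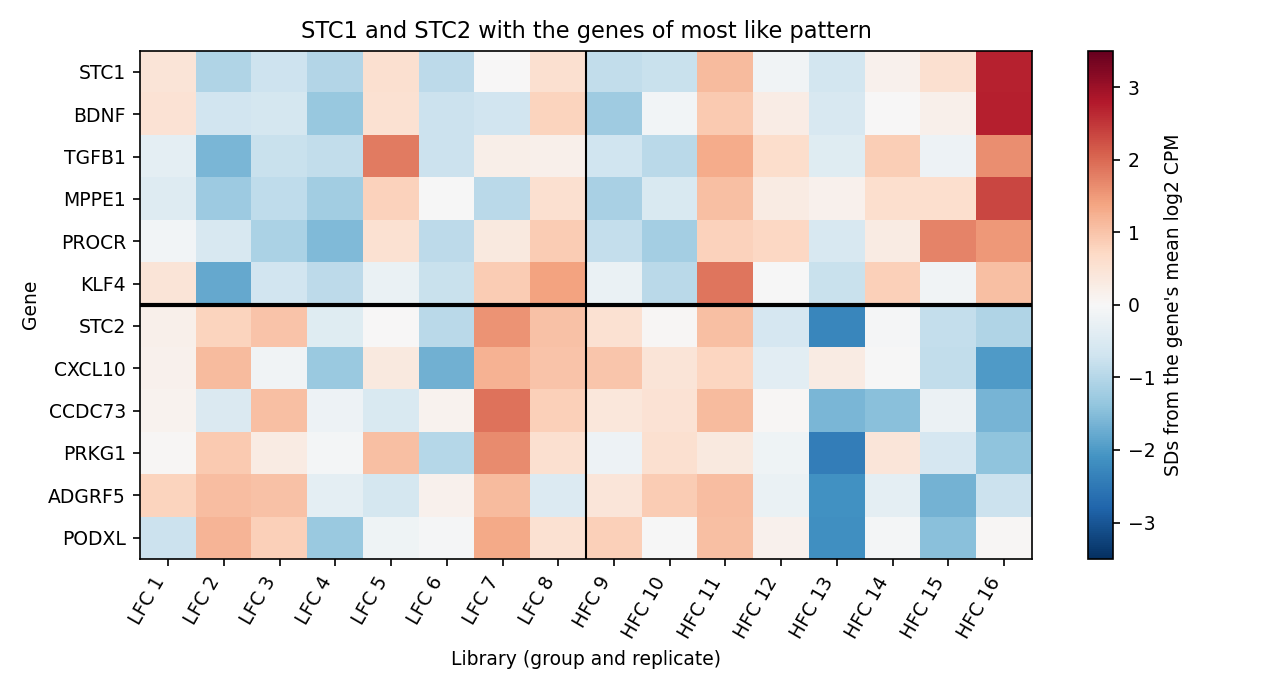
Level of each gene in each library, in SDs from the gene's own mean log2 CPM (red above, blue below), for STC1 and the 5 genes most like it (upper block) and STC2 and the 5 genes most like it (lower block), with LFC left and HFC right of the vertical line. STC1 and BDNF reach 2.70 and 2.72 SDs in HFC replicate 16, while STC2 and 3 of its 5 like genes are lowest in HFC replicate 13.

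The proteins that stanniocalcins act on were then examined through a list of 11 genes of the PAPP-A and IGF axis, of which 10 were tested. No member was called, beside the 0% of all genes. At an unadjusted p under 0.05, 1 of the 10 was higher and 0 were lower in HFC, beside 4.29% and 1.53% of all genes, and the median log2 fold change of the list was 0.01, beside -0.01 over all genes tested. PAPPA, the protease inhibited by both stanniocalcins, was fitted at 0.16 (SE 0.49) on the log2 scale, and its relative PAPPA2 at -0.05 (SE 0.59). PAPPA was scarce, with a mean of 0.689 CPM in LFC and 0.765 CPM in HFC, which limits that estimate. PAPPA2 averaged 4.02 and 3.88 CPM. The substrates of these proteases also stayed close to 0, with IGFBP4 at 0.04 (SE 0.28) and IGFBP5 at -0.15 (SE 0.30). The gene with the unadjusted p under 0.05 was IGF2, a growth factor of the axis, with 1.80 (SE 0.65, edgeR adjusted p = 0.656), but it was 0.69 without HFC replicate 14, where 0 of the 10 reached that level. The count was 2 without HFC replicate 10, 12 or 15, where 4.85%, 4.97% and 5.32% of all genes were higher. IGF1 had 0.40 (SE 0.23), and IGFBP2, at -0.29 (SE 0.50), was at 0.44 without LFC replicate 5.

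Calcium and phosphate handling, the classical field of these hormones, was followed through 20 genes, of which 12 were tested. The list had 1 member higher and 0 lower at an unadjusted p under 0.05, beside 4.29% and 1.53% of all genes, 0 called, and a median log2 fold change of 0.05. Without LFC replicate 5, 2 members reached that unadjusted level in either direction, beside 8.34% of all genes higher and 3.58% lower. That member was CASR, the calcium-sensing receptor, fitted at 1.50 on the log2 scale (SE 0.46, edgeR adjusted p = 0.612). Like STC1, CASR was highest in HFC replicate 16, where it reached 146 CPM against at most 41.1 CPM elsewhere, and without that library its log2 fold change was 0.76. SLC34A3, a sodium-phosphate cotransporter, had 0.30 (SE 0.33). At the other end were PTH1R, the receptor of parathyroid hormone, at -0.98 (SE 0.55), which was at -0.05 without LFC replicate 5, and CALB2, the calcium buffer calretinin, at -0.79 (SE 0.46).

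Of the hypoxia response genes, 19 of 20 were tested, and 2 were higher and 0 lower at an unadjusted p under 0.05, beside 4.29% and 1.53% of all genes, with 0 called and a median log2 fold change of 0.12. Leaving out LFC replicate 5 brought that number to 5, HFC replicate 15 to 4 and HFC replicate 14 to 1, while the share of all genes that was higher at that level was 8.34%, 5.32% and 3.05% in these fits, and the share that was lower 3.58%, 1.63% and 1.27%. In the full set these were ADM, the vasodilator peptide adrenomedullin, at 2.52 (SE 0.90, edgeR adjusted p = 0.654), and LDHA, a lactate dehydrogenase subunit, at 3.53 (SE 1.03, edgeR adjusted p = 0.612). ADM shared its top library with STC1, with 86.9 CPM in HFC replicate 16, and was at 1.84 without it, whereas LDHA was at 0.47 without HFC replicate 14. The lowest members were EPAS1, a hypoxia-inducible factor, at -0.33 (SE 0.40), and the glucose transporter SLC2A3, at -0.20 (SE 0.19).

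The 20 ER stress and ATF4 genes, which include known companions of STC2, were tilted the other way, with a median log2 fold change of -0.22. At an unadjusted p under 0.05, 1 was higher and 3 were lower in HFC, beside 4.29% and 1.53% of all genes, and 0 were called. Without LFC replicate 2, 2 in all reached that level, beside 3.54% of all genes higher and 1.21% lower in that fit. The 3 lower ones, named after their values were seen, were the ER chaperone HSPA5 at -0.36 (SE 0.13), the ER degradation factor HERPUD1 at -0.31 (SE 0.11) and the disulfide isomerase PDIA4 at -0.24 (SE 0.11), with edgeR adjusted p of 0.654, 0.68 and 0.85. Their changes were of similar size to the -0.37 of STC2, but these genes were picked as lower at that unadjusted level. ATF4 itself was at 0.31 (SE 0.32). Of other list members, TRIB3 was at -0.36 (SE 0.23), and ASNS, CHAC1, DDIT3 and SESN2 were at -0.11, -0.08, -0.05 and -0.07. Lower still but less even were the ER proteins SDF2L1 at -0.85 (SE 0.43) and CRELD2 at -0.58 (SE 0.37), which were at -0.30 and -0.03 without LFC replicate 5. ATF3, a stress-induced transcription factor, had 1.69 (SE 0.76) and was at -0.13 without HFC replicate 14, and PSAT1, an enzyme of serine synthesis, had 0.50 (SE 0.26).

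**Figure D5:**
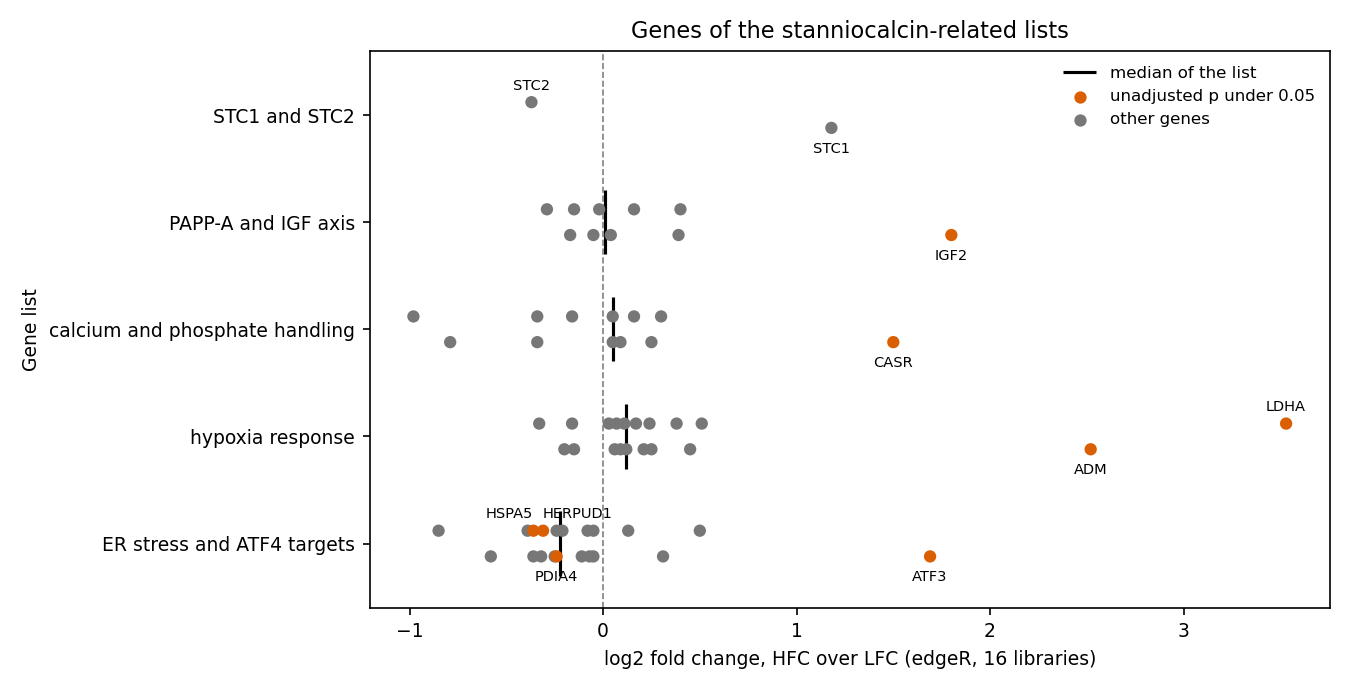
Log2 fold change of HFC over LFC from edgeR for STC1 and STC2 (top row) and for each tested member of 4 gene lists, 1 point per gene, orange where the unadjusted p was under 0.05, with a black line at the median of each list. The medians lie between -0.22 and 0.12, and STC1 at 1.18 lies to the right of them while STC2 at -0.37 lies to the left.

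Markers of the cell types that a whole gland holds were counted in the same way, none was called, and their part in the STC1 and STC2 values was not tested. At an unadjusted p under 0.05, 4 of 7 melanotroph and corticotroph markers (2 without HFC replicate 16, where 2.91% of all genes were higher), 3 of 8 pituicyte and glia markers and 3 of 10 microglia and macrophage markers (7 without LFC replicate 5, where 8.34% of all genes were higher) were higher in HFC, and 1 of 8 anterior hormone cell markers was lower. Over all genes tested in the full fit, 4.29% were higher and 1.53% lower at that level. The summed melanotroph and corticotroph markers reached 223298 CPM by total count in HFC replicate 16, against 6643 to 58452 in LFC and 26401 to 65942 in the other HFC libraries. That sum was mostly POMC, which took 22.0% of all counts in HFC replicate 16. The other members went both ways there. PCSK2, PAX7, TBX19 (364 CPM with TMM factors) and PCSK1 (299 CPM) were above their LFC means. AVPR1B, at 2.41 CPM against an LFC mean of 209, and CRHR1, at 31.6 against 42.9, were below. The summed pituicyte and glia markers were 307 there, against 30.7 to 99.8 in LFC and 24.4 to 279 in the other HFC libraries. Summed AVP and OXT were 117 there, against 0.106 to 63.2 in LFC and 0 to 113 in the other HFC libraries. For the endothelium, whose mean rose with STC2, 0 of 10 markers had an unadjusted p under 0.05, and the sums were 478 to 862 in LFC, 367 to 813 in the other HFC libraries and 498 in HFC replicate 16. Of pericyte and smooth muscle markers 0 of 8, of fibroblast markers 1 of 7, of stem and folliculostellate markers 1 of 6, and of the neurohypophysial hormones AVP and OXT 0 of 2 passed that unadjusted level, and those that passed were higher in HFC. The fibroblast count was 0 with any of 8 libraries left out and 3 without HFC replicate 9, the stem cell count was 2 with any of 6 libraries left out, and AVP and OXT had 2 of 2 at that level without LFC replicate 5 and 1 without HFC replicate 9, 10, 12 or 15. Endothelium reached 1 without HFC replicate 11 and pericytes 1 without HFC replicate 10. In the fits with a single library left out, 2.91% to 8.34% of all genes were higher at that level and 1.19% to 3.58% lower.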

How the data were processed

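RNA-seq counts of 16 pituitary libraries (8 LFC, 8 HFC) were used. The authors deposited raw counts per gene, made from single reads aligned to Sscrofa11.1 with Ensembl models. The submitters' processing notes name FastQC, STAR, RSEM and DESeq2 without versions. A deposited table of the authors' comparison holds group means, ratio values and p-values, of which only names and coordinates were taken. Symbols came from that table (10091 genes), a gene name table (5454) or, for 287 genes including POMC and IGF2, an overlap of at least 50% with a RefSeq gene. PRG2, TRPV5, KL, SLC2A1 and CLDN5 were not analysed here.

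Counts were tested with edgeR 4.0.16 in R 4.3.3 (glmQLFit, TMM, filterByExpr, no covariate), which kept 14319 genes. Genes were called at a Benjamini-Hochberg adjusted p of at most 0.05 and a fold of at least 1.3. Log2 CPM used a prior count of 2. Summed marker levels are CPM by total count, without TMM factors. Permutation tests were two-sided and used numpy 2.4.6. A chi-square test of counts between the 56 pairs within groups gave at least 27.1 per degree of freedom, so none was a duplicate. The gilts were unrelated, per the methods, and the labels give no batches. Alternatives were DESeq2 1.42.0, limma-voom (limma 3.58.1), other scalings, filters and prior counts, leaving out each library, and leaving out LFC replicate 5 with HFC replicate 14. Scripts were tested on simulated data.

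The members, lists and partners were chosen with earlier results of these data known. Named genes were STC1, STC2, POMC, PCSK2 and PAX7, up to 2 list members with the largest and 2 with the smallest change, and the 5 genes most like each stanniocalcin. PAPPA, PAPPA2, IGFBP4, IGFBP5, IGF1, HSPA5, HERPUD1 and PDIA4 were added by their role or count. So were ATF4, TRIB3, ASNS, CHAC1, DDIT3 and SESN2, and the markers TBX19, PCSK1, AVPR1B and CRHR1.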

Additional observations from a re-analysis of the deposited data

Results flagged for a closer look

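In groups of 8, a library was flagged when its gap to the nearest other exceeded Dixon's 95% critical value. Of 22 groups checked (5 genes as CPM and as log2 CPM, and the ratio of STC1 to STC2), 7 were flagged, where chance flags about 1 in 20, or 1.1 here. That rate assumes normally distributed values, which CPM need not be. The genes were chosen with earlier results of these libraries known, and the checks share libraries and scales. The number flagged is therefore a description and not a test against chance.

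STC1 in HFC replicate 16 was at 93 CPM, with 25.6 CPM next, and was not flagged on the log2 scale. The log2 ratio of STC1 to STC2 in the same library was 5.84, with 3.2 next. The same library was flagged for POMC at 243007 CPM, with 64490 CPM next in its group, and at 17.89 on the log2 scale, with 15.98 next. It was also flagged for PCSK2 at 2595 CPM, with 299 CPM next, and for PAX7 at 333 CPM, with 30.9 CPM next. In LFC, replicate 5 was flagged for POMC at 77318 CPM, with 32172 CPM next. STC2 was flagged in no library.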

How the results depend on the processing

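The edgeR, DESeq2 and limma-voom fits run as alternatives called neither STC1 nor STC2. No paired analysis was possible because the groups share no replicate numbers. STC1 kept its direction in every fit (0.74 with limma-voom, 0.25 without HFC replicate 16) except with PCSK2 as a covariate, where it was -0.66. Covariate values of other genes that turned were -0.11 for PAX7, -0.22 for BDNF, -0.07 for TGFB1 and 0.31 for PAPPA2. With each library left out, the mean difference of STC2 ran from -0.48 to -0.25, past the 0.05 level in 2 of these settings. That of the log2 ratio ran from 0.55 to 1.26. DESeq2 called 6 genes where edgeR called 0.

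Leaving out HFC replicate 16 ended the adjusted call for STC1 with POMC (0.45) and PCSK2 (0.38), as did leaving out the 2 farthest libraries (0.36 and 0.15). The r of STC1 with STC2 was 0.24 without replicate 16 and 0.08 after centring. The r of STC1 with PAX7, past the threshold over 16 libraries, was -0.01 with the 2 farthest out. The other r values that changed sign were not past it: STC1 with the ER stress mean 0.14 (replicate 16 out) and 0.34 (2 farthest out), STC2 with PAX7 0.09 (replicate 16 out) and 0.11 (centred), with the pituicyte mean 0.00 (centred), with the fibroblast mean -0.13 (2 farthest out), and with the hypoxia mean 0.20 (total count), 0.08 (replicate 16 out), 0.17 (2 farthest out) and 0.14 (centred). Log2 fold changes that changed sign were IGFBP2, which ran from -0.46 to 0.44 (without LFC replicate 5) with single libraries left out and was 0.31 without LFC replicate 5 and HFC replicate 14, and ATF3, which ran from -0.13 (without HFC replicate 14) to 1.86 and was -0.13 with DESeq2 and -0.17 without both libraries. With single libraries left out, PAPPA ran from -0.10 to 0.33 and PAPPA2 from -0.41 to 0.15. The cause of these changes was not tested. POMC had no value with the 10 most abundant genes left out, since it is one of them. STC2 rests on 10 to 85 reads per library, which limits its precision.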
